A study of Mus musculus with 8 samples.

Results

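Mcam, Ces2e, Ccdc153 and Des are 4 genes that stood far higher in talazoparib-treated MBL2 lymphoma cells than in untreated cells, although none of them is usually counted among the genes of the DNA damage response. They were picked by name for that difference out of 12260 listed genes, 11934 of which had enough reads to be tested. MBL2 is a T-cell lymphoma line of the C57BL/6 mouse, made by infection with Moloney murine leukaemia virus. RNA was sequenced in 4 groups of 2 libraries each, 24 h after 1 dose of drug. The groups were cells given talazoparib, which inhibits the PARP enzymes of DNA repair, cells given talazoparib with romidepsin (the combination), cells given romidepsin alone, which inhibits histone deacetylases, and untreated control cells. All 8 libraries come from the same line, so each group is a model of 1 lymphoma only. Drug doses are not given here. Whether the 2 libraries of a group stem from separate cultures is not stated. The p-values therefore reflect the spread between these particular libraries, which may be technical.

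The encoded proteins have little in common. Mcam (also known as CD146) is an adhesion receptor of the immunoglobulin superfamily, best known on endothelial cells, pericytes and melanoma cells and, in humans, on a subset of effector T cells. Ces2e belongs to the carboxylesterases, enzymes of the endoplasmic reticulum that split esters and amides and are abundant in liver and gut. Ccdc153 encodes a coiled-coil protein whose human counterpart is named as a subunit of the dynein regulatory complex, the structure that links the outer microtubule doublets of motile cilia. Des encodes desmin, the intermediate filament protein of muscle, which ties the Z-discs of neighbouring myofibrils to each other and to the cell membrane.

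Total counts ran from 28419156 to 38913292 reads per library. The ribosomal RNA gene Rn45s took 0.520% and 0.394% of the reads in talazoparib 1 and 2, and 0.135% to 0.235% in the other 6 libraries. Of 16 T-cell identity markers 11 were listed, and Cd8a, Cd8b1, Trac, Trbc1 and Trbc2 were not. The summed level of the 11 was 3104 to 3134 CPM with talazoparib and 3055 to 3058 with the combination. It was 3284 to 3400 with romidepsin and 3271 to 3448 in control. Thy1 was the largest part, at 999 and 1058 CPM with talazoparib and 1247 and 1194 in control. Of these 11, Cd4, which encodes a T-cell coreceptor, rose by 1.43 on the log2 scale with talazoparib against control and by 1.58 in the combination against romidepsin. Cd3d, which encodes a chain of the T-cell receptor complex, fell by 0.39 and 0.42, and Thy1 fell by 0.30 in the combination. Each of these calls was lost without at least 1 library (highest adjusted p = 0.150 for Cd4 and 0.277 for Cd3d), and without talazoparib 2 the talazoparib value of Cd4 was 0.94. CPM are read counts relative to the size of the library, corrected for its composition. FPKM, used where genes are set beside each other, also divide by transcript length. In bulk RNA, more cells that express a gene and more RNA per cell cannot be told apart.

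On the RefSeq annotation of GRCm38.p6, which is the mm10 build, all 4 are protein-coding genes on the plus strand. Mcam (gene ID 84004) spans chromosome 9, 44134658 to 44142727, and Ccdc153 (270150) lies on the same chromosome at 44240677 to 44247306. The gap between these neighbours is 98 kb and holds 1 other annotated gene, Cbl, which encodes a ubiquitin ligase. Ces2e (234673) spans chromosome 8, 104926260 to 104934672, and Des (13346) chromosome 1, 75360292 to 75368579.

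The promoter sequences are shown because the 4 genes were high and low in the same libraries. These genes had been picked for a rise with talazoparib, so that likeness is partly given by the choice. Ces2g, a second carboxylesterase gene beside Ces2e, is added because it behaved in the same way. Each window runs from 250 bases before to 50 bases after an annotated start (RefSeq, GRCm38.p6, plus strand). For Ces2g that start lies inside the annotated span of the gene. The windows are chr9:44134408-44134707, chr8:104926010-104926309, chr9:44240427-44240726, chr1:75360042-75360341 and chr8:104961468-104961767, in the order printed. Capitals mark matches on either strand. They are E-boxes with the letters CANNTG in all windows but that of Ces2g, GC boxes, which read GGGCGG, and CCAAT boxes. They also mark a cyclic AMP response element in Mcam, which reads TGACGTCA, and a p53 half-site in Ces2g.
Mcam: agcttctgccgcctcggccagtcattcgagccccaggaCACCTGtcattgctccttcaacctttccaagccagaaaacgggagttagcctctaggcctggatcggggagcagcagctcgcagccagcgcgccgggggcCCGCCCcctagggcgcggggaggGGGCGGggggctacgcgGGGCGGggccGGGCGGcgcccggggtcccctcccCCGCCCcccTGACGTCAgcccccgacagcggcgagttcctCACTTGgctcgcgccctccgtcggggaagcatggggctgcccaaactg
Ces2e: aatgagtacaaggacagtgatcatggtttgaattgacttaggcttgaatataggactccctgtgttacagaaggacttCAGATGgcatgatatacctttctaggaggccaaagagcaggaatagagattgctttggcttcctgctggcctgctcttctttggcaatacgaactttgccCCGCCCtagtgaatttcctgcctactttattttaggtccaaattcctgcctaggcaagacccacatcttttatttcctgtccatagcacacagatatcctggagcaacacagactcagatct
Ccdc153: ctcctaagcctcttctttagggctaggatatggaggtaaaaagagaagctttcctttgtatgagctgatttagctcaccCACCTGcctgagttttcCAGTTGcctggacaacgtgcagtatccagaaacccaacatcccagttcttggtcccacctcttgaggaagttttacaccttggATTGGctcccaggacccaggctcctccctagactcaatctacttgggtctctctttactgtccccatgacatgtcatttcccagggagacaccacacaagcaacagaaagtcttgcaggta
Des: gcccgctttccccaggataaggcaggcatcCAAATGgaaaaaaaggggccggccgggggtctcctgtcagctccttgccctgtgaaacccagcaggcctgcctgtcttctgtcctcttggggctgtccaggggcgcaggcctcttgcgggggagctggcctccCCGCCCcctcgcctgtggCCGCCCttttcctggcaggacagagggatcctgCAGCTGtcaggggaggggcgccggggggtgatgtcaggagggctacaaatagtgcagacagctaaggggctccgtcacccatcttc
Ces2g: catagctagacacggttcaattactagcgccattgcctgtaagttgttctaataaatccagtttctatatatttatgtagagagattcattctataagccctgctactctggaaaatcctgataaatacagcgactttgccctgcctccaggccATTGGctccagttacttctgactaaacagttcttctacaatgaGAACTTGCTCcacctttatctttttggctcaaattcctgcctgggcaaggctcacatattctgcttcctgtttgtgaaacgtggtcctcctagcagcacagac

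The windows differ in base composition. That of Mcam is 72.7% G and C with 29 CpG pairs, and that of Des 65.3% with 11. Ccdc153 has 49.0% and 1 CpG, Ces2e 44.7% and 2, and Ces2g 43.0% and 4, beside a median of 52.7% and 7 CpG over 32851 promoters of 27025 genes. Matches were searched on both strands, and positions count from the start base as 0 to the first letter of a match. The p53 half-site, present in 8.36% of all promoters of this length, had no match in the windows of Mcam, Ces2e, Ccdc153 and Des and 1 in that of Ces2g, at -53. An E-box is common, with a match in 72.3% of promoters. Mcam has 2 (at -212 and 2), Ces2e 1 (-172), Ccdc153 2 (-171 and -154) and Des 2 (-220 and -36). GC boxes, found in 35.7% of promoters, number 5 in Mcam, 2 in Des and 1 in Ces2e. A CCAAT box, found in 37.4%, occurs in Ccdc153 at -71 and in Ces2g at -96, both on the minus strand. The letters TATAAA, found in 13.6% of promoters, are in none of the 5 windows. The response element in Mcam lies at -29 and occurs in 1.79% of promoters, and it was searched for only after the sequences had been seen. No motif searched was shared by all 4 genes except the E-box.

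Mcam had 72.3 and 66.9 CPM in the talazoparib libraries, 63.4 and 55.2 with the combination, 8.52 and 10.6 with romidepsin and 8.41 and 7.21 in control. Talazoparib libraries were highest, combination libraries next, and the romidepsin libraries lay just above control. The lower romidepsin library and the higher control library almost met.

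Ces2e, the least abundant of the 4 in reads, had 10.5 and 18.2 CPM with talazoparib, 11.3 and 11.3 with the combination, 1.21 and 1.09 with romidepsin and 1.27 and 1.39 in control. Both combination libraries lay between the talazoparib libraries, which differed from each other more than those of any other group. Only 33 to 47 reads of Ces2e stood behind each romidepsin or control value, against 332 to 545 in the other 4 libraries.

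Ccdc153 had 18.8 and 16.5 CPM with talazoparib, 20.1 and 18.4 with the combination, 4.17 and 3.59 with romidepsin and 3.10 and 3.06 in control. It was highest in the combination, although combination 2 lay below talazoparib 1. The control libraries were the lowest 2 of the 8.

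Des had 23.7 and 15.8 CPM with talazoparib, 21.1 and 21.7 with the combination, 4.50 and 6.20 with romidepsin and 3.77 and 3.99 in control. Here too the combination libraries lay between the talazoparib libraries. The spread in talazoparib ran opposite to that of Ces2e, with Des higher in talazoparib 1 and Ces2e higher in talazoparib 2.

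**Figure D1:**
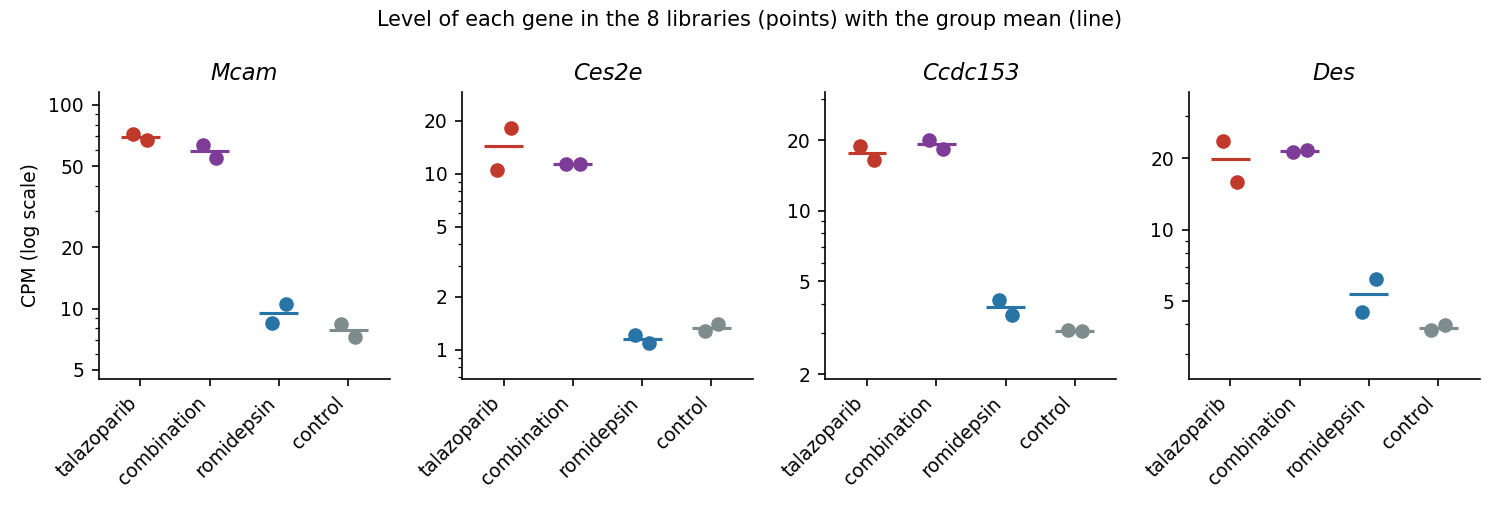
CPM on a log axis in the 8 libraries (points) and the group means (lines), with 2 libraries per group and 1 panel per gene. In each panel the talazoparib and combination libraries stand apart from the romidepsin and control libraries, from 55.2 to 72.3 against 7.21 to 10.6 CPM for Mcam and from 10.5 to 18.2 against 1.09 to 1.39 CPM for Ces2e.

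Per length, Mcam was the most abundant of the 4 with talazoparib. It averaged 24.4 ± 1.12 FPKM with talazoparib, 20.9 ± 1.98 with the combination, 3.13 ± 0.487 with romidepsin and 2.56 ± 0.230 in control (SD, n = 2 each). Ccdc153 averaged 16.5 ± 1.42, 18.1 ± 1.08, 3.38 ± 0.353 and 2.67 ± 0.0194 FPKM in the same order of groups. In control cells its level was therefore as high as that of Mcam within their spread.

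Ces2e averaged 7.05 ± 2.76 FPKM with talazoparib, 5.69 ± 0.0162 with the combination, 0.447 ± 0.0115 with romidepsin and 0.596 ± 0.0861 in control. Des averaged 6.53 ± 1.79, 7.14 ± 0.156, 1.65 ± 0.379 and 1.20 ± 0.0737 FPKM in the same order. The levels of Ces2e and Des did not differ beyond their spread with talazoparib, while in control Ces2e was the lower.

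Ranked by FPKM among the listed genes, Mcam stood at percentile 70.9 with talazoparib, 66.9 with the combination, 26 with romidepsin and 24.1 in control. Ccdc153 was at 60.5, 63.1, 27.0 and 24.6, Des at 36.6, 38.3, 19.4 and 17, and Ces2e at 38.0, 33.6, 9.85 and 12.1. In control cells all 4 thus stood at or below percentile 24.6 of the listed genes. After talazoparib Mcam and Ccdc153 stood above the median, whereas Des and Ces2e remained below it.

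The comparison of talazoparib with control chose these genes, so their differences there are a description without a test. Talazoparib minus control was 3.15 on the log2 scale for Mcam (SE 0.149), 3.43 for Ces2e (0.285), 2.52 for Ccdc153 (0.153) and 2.35 for Des (0.231). Among the log2 fold changes of the 11934 tested genes these were ranks 9, 5, 32 and 45 from the top. In that comparison 6.43% of all genes rose, 4.64% fell, and in 29.0% both talazoparib libraries lay above both control libraries.

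The comparison of the combination with romidepsin rests on the other 4 libraries and asks whether the same genes were higher when talazoparib was added to romidepsin. The genes were picked with results of all 4 groups known, so its p-values are not independent of the choice and describe the difference against the spread between libraries. Mcam rose 6.19-fold (log2 2.63, SE 0.145, adjusted p = 0.000209, quasi-likelihood test of edgeR, adjusted over all genes by Benjamini-Hochberg). Ces2e rose 9.87-fold (log2 3.30, SE 0.291, adjusted p = 0.00123, same test). Ccdc153 rose 4.97-fold (log2 2.31, SE 0.151, adjusted p = 0.000452) and Des 3.98-fold (log2 1.99, SE 0.225, adjusted p = 0.00346). All 4 passed, where 7.01% of all genes rose and 4.70% fell, and both combination libraries lay above both romidepsin libraries, as they did for 30.8% of all genes. By p-value Mcam, Ces2e, Ccdc153 and Des ranked 4, 27, 7 and 63 of the 11934 genes, and these ranks are not independent of the choice either.

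That fit took its estimate of the spread from all 8 libraries. Fitted on the 4 combination and romidepsin libraries alone, where 7.61% of genes rose, the log2 fold changes were again 2.63 for Mcam, 3.30 for Ces2e, 2.31 for Ccdc153 and 1.99 for Des. Their adjusted p were 0.000711, 0.000711, 0.000806 and 0.00157 (quasi-likelihood test of edgeR, Benjamini-Hochberg). The authors' deposited table gives 6.19, 9.87, 4.98 and 3.98 as the fold changes of this comparison. Its adjusted p are 1.06e-43, 2.75e-23, 4.60e-26 and 1.46e-14, by a test of the authors that is not given here. Those values come from the same libraries and are no separate evidence. Rn45s took 0.183% and 0.172% of the reads in the combination libraries, and 0.139% and 0.235% in romidepsin 1 and 2. Whether the Rn45s share bears on the levels of the 4 genes was not tested.

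The remaining comparisons share libraries with the one that chose the genes, and no test is given for them. The combination minus control was 2.92 for Mcam, 3.09 for Ces2e, 2.64 for Ccdc153 and 2.46 for Des on the log2 scale. The combination minus talazoparib was -0.23 (SE 0.133), -0.34 (0.241), 0.12 (0.138) and 0.12 (0.210) in the same order of genes. Libraries of these groups overlapped for Ces2e, Ccdc153 and Des and not for Mcam. How often they lay apart over all genes was not counted, so nothing is read from this. For Ces2e and Des the sign rested on talazoparib 2, since without it the values were 0.11 and -0.15.

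Romidepsin minus control was 0.29 for Mcam (SE 0.147), 0.33 for Ccdc153 (0.159), 0.47 for Des (0.235) and -0.22 for Ces2e (0.326) on the log2 scale. Mcam, Ccdc153 and Des were thus slightly higher in both romidepsin libraries than in both control libraries, which held for 18.7% of all genes. Ces2e was slightly lower, and libraries lay apart in either direction for 37.3% of all genes.

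**Figure D2:**
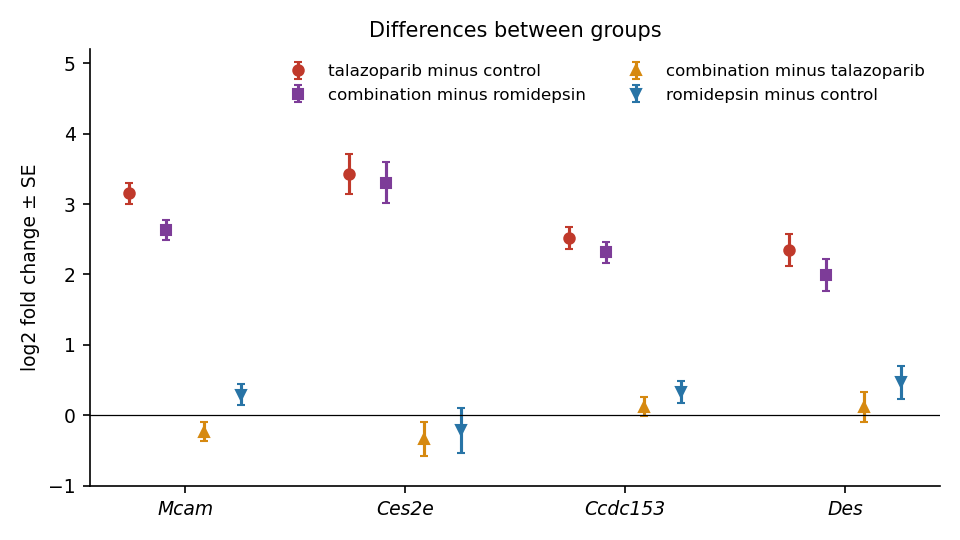
Log2 fold changes (points) with their standard errors (bars) for the 4 genes in 4 comparisons of 2 libraries against 2. Talazoparib minus control (2.35 to 3.43) and the combination minus romidepsin (1.99 to 3.30) lie far above 0, while the combination minus talazoparib and romidepsin minus control lie between -0.34 and 0.47. Only the combination minus romidepsin was tested, and the genes had been picked with results of all 4 groups known.

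The profile of each gene over the 8 libraries was set against those of 11072 genes with a mean of at least 1 CPM. Likeness is the root mean square difference of log2 CPM after each gene was centred on its own mean, so that 0 is an identical profile. All of it is a description, since the 4 genes were chosen for their levels in these data. Nearest to Mcam were 1700007K13Rik (0.178), Cdkn1a (0.190), which encodes the cell-cycle inhibitor p21, and Cd80 (0.235), which encodes a ligand of the T-cell receptors Cd28 and Ctla4. The median distance to Mcam was 1.47.

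Cd80 was also the nearest to Ces2e (0.261), followed by Fam163a (0.366) and Mcam itself (0.377). Ccdc153 was nearest to Ak1 (0.154), an adenylate kinase gene, Ckmt1 (0.175), which encodes a mitochondrial creatine kinase, and Spib (0.212), which encodes a transcription factor of the ETS family. Des was nearest to Ckmt1 (0.121), 1700003M07Rik (0.131) and Spib (0.206). Ccdc153 and Des thus shared 2 of their 3 nearest genes. Among the 4 genes themselves, Ccdc153 and Des were closest to each other (0.236) and Ces2e and Des furthest apart (0.728).

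**Figure D3:**
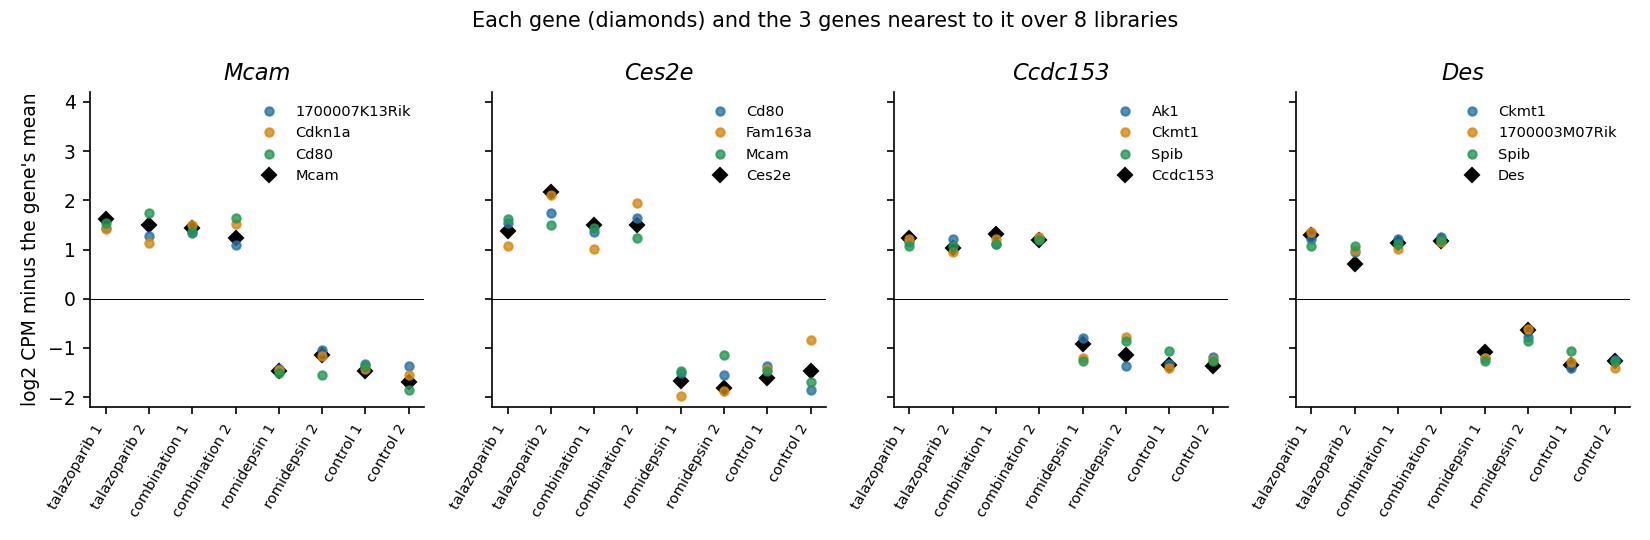
Log2 CPM minus each gene's own mean in the 8 libraries, for each of the 4 genes (diamonds) and the 3 genes nearest to it (circles). All profiles lie above 0 in the talazoparib and combination libraries and below 0 in the romidepsin and control libraries, and Ces2e and Des part most in talazoparib 2, where Ces2e has its highest value.

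The genes around the 4 were examined to see how far along the chromosomes the differences reached. From here on, changes with talazoparib are against control and changes in the combination are against romidepsin. Within 200 kb, 75 other genes are annotated, 51 of them protein coding, and 36 were listed and tested. After talazoparib 2 of the 36 rose and 1 fell, or 8.33% against 11.1% of all genes, and the median log2 fold change was 0.03. In the combination against romidepsin 2 rose and 2 fell, or 11.1% against 11.7% of all genes, with a median of -0.04. Within 100 kb 18 genes were tested, and 2 rose and 1 fell with talazoparib (16.7%, median 0.20). In the combination 1 of the 18 rose and 2 fell (16.7%, median 0.11).

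Ces2g, a carboxylesterase gene 26.9 kb from Ces2e (chromosome 8, 104961596 to 104969537), was the neighbour with the largest change. It had 3.37 and 5.21 CPM with talazoparib, 3.01 and 3.32 with the combination, 0.146 and 0.408 with romidepsin and 0.162 and 0.133 in control. The 4 libraries with talazoparib, alone or combined, held 100 to 156 reads each, and the others 4 to 15. Ces2g rose by 4.81 on the log2 scale with talazoparib (SE 0.470, adjusted p = 0.00182) and by 3.43 in the combination against romidepsin (SE 0.430, adjusted p = 0.00499, quasi-likelihood test of edgeR, Benjamini-Hochberg). Both calls held when each library was left out in turn. The combination value ran from 2.95 (without romidepsin 1) to 4.40 (without romidepsin 2). Low genes change less on the log2(FPKM + 1) scale, where these rises came out as 1.25 and 0.97.

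The pseudogene Ces2d-ps, on the other side of Ces2e, was the only other tested gene of the 20 annotated around it. Its log2 fold changes of 0.68 with talazoparib and 0.53 in the combination did not pass (adjusted p = 0.126 and 0.197, quasi-likelihood test of edgeR, Benjamini-Hochberg). Ces2e shares 3.30% of its 50-base transcript words with other genes, 36 of them with Ces2g, so a small part of its reads could have been assigned to either gene.

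On chromosome 9, Cbl, the gene between Mcam and Ccdc153, had 100.2 and 129.4 CPM with talazoparib and 107.0 and 117.7 in control. Its log2 fold change was 0.03 (adjusted p = 0.963, quasi-likelihood test of edgeR, Benjamini-Hochberg), and -0.04 without control 1 or -0.17 without talazoparib 2. In the combination Cbl had 109.9 and 47.8 CPM, against 130.1 and 108.3 with romidepsin (log2 -0.59, adjusted p = 0.260). Without combination 1 that difference passed (log2 -1.32, adjusted p = 0.0309, and 0.0309 to 0.769 over all alternatives). Pdzd3, the gene next to Ccdc153, differed by 0.85 with talazoparib and 0.90 in the combination and passed in neither (adjusted p = 0.0958 and 0.0824).

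The other calls on chromosome 9 were small and were lost on leaving out single libraries. Usp2, a ubiquitin protease gene, rose by 0.98 on the log2 scale with talazoparib (adjusted p = 0.0481), a call lost when any 1 of the 8 libraries was left out (highest adjusted p = 0.279). The histone gene H2afx fell by 0.96 with talazoparib and by 1.08 in the combination (adjusted p = 0.0457 and 0.0333, quasi-likelihood test of edgeR, Benjamini-Hochberg). Its talazoparib call was lost without any library but talazoparib 1 (highest 0.212), and its combination call without any but the talazoparib libraries (highest 0.194). Thy1, a surface marker of T cells, fell by 0.30 in the combination and Vps11 rose by 0.38 (adjusted p = 0.0393 and 0.0358), and both were lost without any library but the talazoparib ones (highest 0.183 and 0.149).

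None of the 16 tested genes around Des passed in either comparison, by the quasi-likelihood test of edgeR. The nearest of them were Speg, a muscle kinase gene 6.7 kb away, with log2 fold changes of 0.57 with talazoparib and 0.54 in the combination (adjusted p = 0.0555 and 0.0622), and Dnpep, with -0.27 and -0.14. Des overlaps the antisense gene Gm15179 over 220 of its 3754 exon bases, and Mcam the antisense gene Gm10687 over 17 of 3350. Whether the authors counted by strand is not given here, so reads in those bases cannot be told apart.

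**Figure D4:**
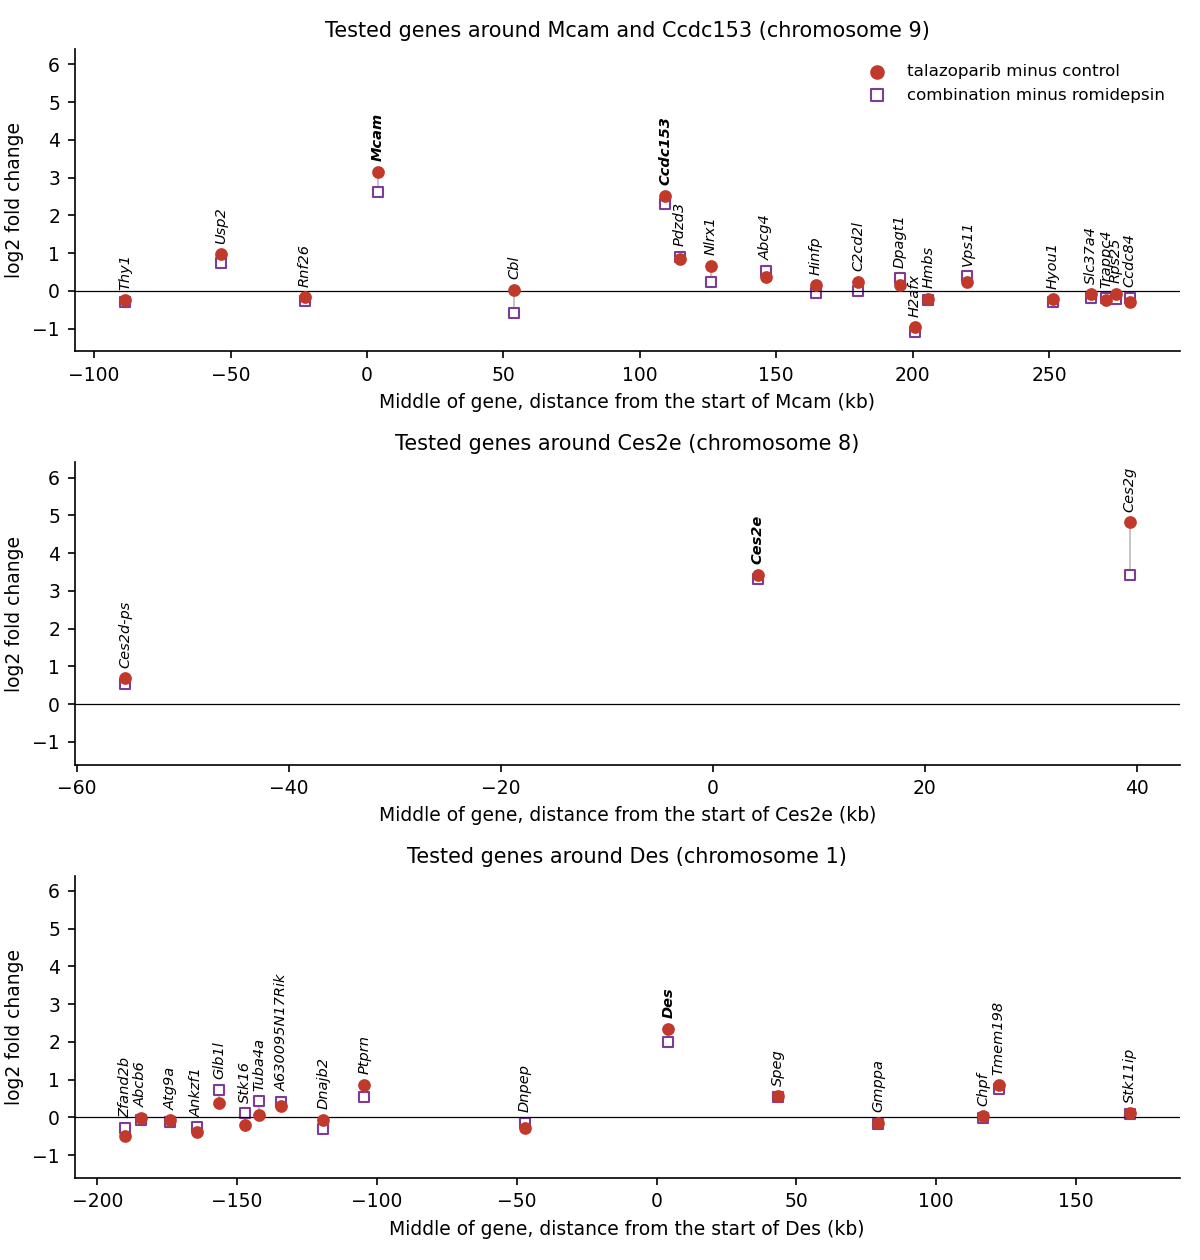
Log2 fold change of each tested gene within 200 kb against the distance of its middle from the start of Mcam, Ces2e or Des, for talazoparib minus control (circles) and the combination minus romidepsin (squares). Mcam (3.15 and 2.63), Ccdc153 (2.52 and 2.31), Ces2e (3.43 and 3.30), Des (2.35 and 1.99) and Ces2g (4.81 and 3.43) stand out, and every other gene lies between -1.08 and 0.98. All of these but Ces2g had been picked for their large rises.

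Related genes were then followed in 6 lists built around the roles of the 4 proteins, with the 4 genes themselves left out. Together the lists held 106 tested genes, of which 10 rose and 4 fell with talazoparib and 10 rose and 4 fell in the combination against romidepsin. That is 13.2% in each comparison, beside 11.1% and 11.7% of all genes. The difference between the comparisons was tested for 171 neighbours, list genes and markers. It passed for 0 of them in the quasi-likelihood test of edgeR (lowest adjusted p = 0.999, with 3 at an unadjusted p under 0.05), which does not show equal effects. Leaving out each library in turn ended 12 of the 14 talazoparib calls, all but those of Ces2g and Ezr, and 13 of the 14 combination calls, all but that of Ces2g. The highest adjusted p on leaving out a library was 0.225 (Dnaic2 without control 1) and 0.231 (Dnaaf5 without combination 2).

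Of 26 reported ligands and partners of Mcam 14 were tested, with 2 rises and 2 falls in each comparison and medians of -0.00 and -0.08. Lama5, which encodes a laminin chain, rose by 1.13 on the log2 scale with talazoparib and 1.12 in the combination. Pdgfrb, a growth factor receptor gene, rose by 1.01 and 0.86. Ezr, which encodes ezrin, a linker of membrane proteins to actin, fell by 0.68 and 0.58, and Arhgdia by 0.46 and 0.37. Among 26 tested cell adhesion genes only Chl1 rose with talazoparib (0.63) and only Bcam in the combination (1.03), with medians of 0.09 and 0.10. The combination effect less the talazoparib effect was -0.13 for Chl1 (SE 0.209) and 0.56 for Bcam (SE 0.305), and neither passed. These 26 genes ran from -0.70 to 1.45 with talazoparib and from -0.98 to 1.03 in the combination. Mcam itself lay above them all, but it had been picked for its large rise.

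The carboxylesterase list named 26 genes, and only 4 were tested. Ces2g rose in both comparisons, while Nceh1 (log2 0.12 and 0.44), Esd (-0.15 and -0.10) and Ces2d-ps did not pass. Of the 22 other genes, most of the liver and gut carboxylesterases among them, none is listed in the table.

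Of 41 tested genes of the dynein regulatory complex, axonemal dyneins and motile cilia, 5 rose and none fell with talazoparib (median 0.20), or 12.2% against 11.1% of all genes. In the combination 3 rose and 1 fell (median 0.32), or 9.76% against 11.7%. Dnah10 and Dnah11, which encode dynein heavy chains, rose by 1.95 and 0.84 with talazoparib and by 2.43 and 0.95 in the combination. For Dnah10 the combination value ran from 1.91 (without romidepsin 2) to 3.11 (without romidepsin 1) on leaving out 1 library. Iqcg, which encodes a subunit of the dynein regulatory complex, rose by 0.64 and 0.90. Dnaic2 (2.11) and Cfap77 (1.19) rose with talazoparib only and Dnaaf5 fell in the combination only (-0.41), but the difference between the comparisons passed for none of these 3 genes. Dnah10 was low, at 1.45 and 2.57 CPM with talazoparib and 0.593 and 0.432 CPM in control, and on the log2(FPKM + 1) scale it did not pass in either comparison (adjusted p = 0.232 and 0.109, limma).

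No other intermediate filament gene rose in either comparison. Of the 8 tested beside Des, Nefh and Lmnb1, which encode a neurofilament chain and lamin B, fell with talazoparib (by 0.63 and 0.50 on the log2 scale), and Lmnb1 also in the combination (by 0.39). Vim, which encodes vimentin, the usual intermediate filament of lymphocytes, had log2 fold changes of 0.13 and 0.06 and did not pass. Among 13 tested partners of desmin and Z-disc genes, Cryab rose in both comparisons (1.26 and 1.40). Cryab encodes a chaperone that binds desmin. Flnc (1.84), which encodes filamin C, and Actn1 (0.42), which encodes an actinin, passed in the combination and not with talazoparib. The combination effect less the talazoparib effect was 0.78 for Flnc (SE 0.427) and 0.09 for Actn1 (SE 0.144), and neither passed. The medians were 0.42 and 0.26, beside 0.01 and -0.00 for all genes.

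**Figure D5:**
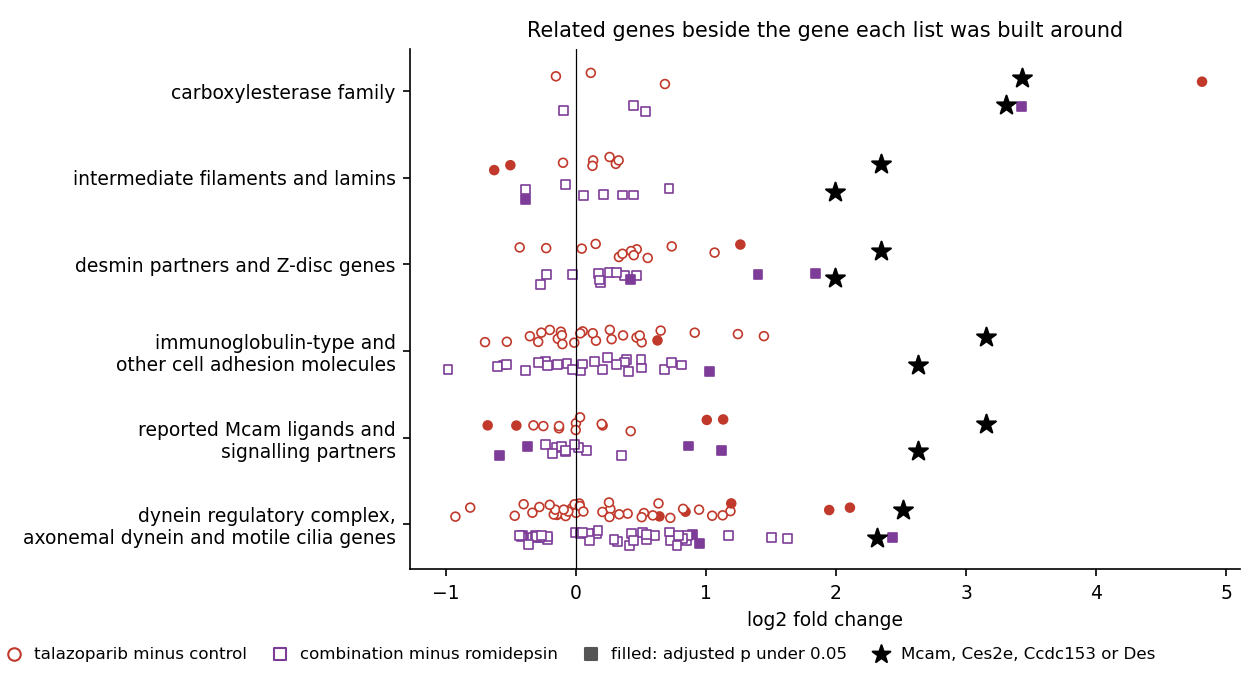
Log2 fold changes of the tested genes in 6 lists, for talazoparib minus control (circles) and the combination minus romidepsin (squares), filled where the adjusted p was under 0.05, with Mcam, Ces2e, Ccdc153 or Des as stars on the rows built around them. The stars lie at 1.99 to 3.43, beyond the other genes of their rows except Ces2g at 4.81 and 3.43 and Dnah10 at 2.43 in the combination. The starred genes had been picked for their large rises.

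Markers of the tissues that usually express the 4 genes were mostly not listed. Of 17 skeletal and heart muscle markers only Ttn and Ryr1 were, and neither passed. Their summed level was 4.72 to 7.58 CPM with talazoparib, 4.27 to 5.27 with the combination, 2.78 to 3.18 with romidepsin and 3.23 to 3.69 in control. Ckm, Acta1, Myod1 and Myog are not listed. Of 13 smooth muscle and pericyte markers 4 were tested, and Pdgfrb and Notch3 rose while Acta2, the smooth muscle actin gene, fell in both comparisons. The talazoparib calls of Notch3 and Acta2 held without each library, whereas that of Pdgfrb did not survive leaving out control 1 (adjusted p = 0.142) or control 2 (adjusted p = 0.105). In the combination Notch3 was lost without romidepsin 2 or combination 1 (highest adjusted p = 0.0744), Acta2 without romidepsin 1, romidepsin 2 or combination 1 (highest 0.0750) and Pdgfrb without any library but the talazoparib ones (highest 0.176). Myh11, Tagln and Rgs5 are not listed. The summed level was 311 to 400 CPM with talazoparib, 343 in both combination libraries, 286 to 301 with romidepsin and 295 to 307 in control.

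Of 13 endothelial markers 4 were tested and Eng, which encodes endoglin, rose (log2 3.39 with talazoparib and 3.06 in the combination). Eng had 4.41 and 3.17 CPM with talazoparib, 4.21 and 4.72 with the combination, 0.841 and 0.272 with romidepsin and 0.323 and 0.399 in control. Over all alternatives its rises came out as low as 0.93 with talazoparib and 1.01 in the combination. Its calls were lost without control 1 (adjusted p = 0.0668) and without combination 2 (adjusted p = 0.0574), and the combination value was 4.02 without romidepsin 1 and 2.41 without romidepsin 2. Cdh5, Kdr and Vwf are not listed, and the summed level was 144 to 179 CPM with talazoparib, 162 to 166 with the combination, 124 to 151 with romidepsin and 123 to 131 in control. Of 13 markers of multiciliated cells 4 were tested, and Foxj1, their master regulator, is not listed. Most of the summed level of these 4 came from Myb (332 and 414 CPM with talazoparib, 278 and 303 in control). None passed with talazoparib and Myb rose in the combination (0.47, lost without any library but the talazoparib ones, highest adjusted p = 0.188), with sums of 472 to 492, 459 to 463, 360 to 396 and 386 to 394 CPM in the same order of groups. Of 14 liver and gut epithelial markers 2 were tested, Alb, Vil1 and Hnf4a not being listed, and Cdh1 rose with talazoparib (1.57, lost without control 1, control 2, talazoparib 1, combination 1 or combination 2, highest adjusted p = 0.193). Their sums were 1.54 to 2.02, 2.63 to 3.10, 1.69 to 1.97 and 0.728 to 0.764 CPM. The part of any of these cell types in the levels of Mcam, Ces2e, Ccdc153 and Des was not tested.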

How the data were processed

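RNA sequencing of 8 MBL2 libraries was used, with groups and replicate numbers from the sample titles. Libraries came from the TruSeq Stranded mRNA kit, per the labels' protocols. The submitters' processing notes name HISAT2, StringTie and the build mm10. Versions and settings are not given here. The authors deposited raw counts of reads and FPKM values per gene in 1 table, per the file headers. It also holds the authors' own linear fold changes, where a fall is minus the inverse ratio, and their p-values, which entered no test here. The authors' log2 values were not used. All listed genes have at least 1 read in every library, so a gene not listed is not analysed here.

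Counts were filtered (filterByExpr), scaled with TMM (factors 0.954 to 1.04) and fitted in edgeR 4.0.16 (R 4.3.3) with a term for each group over 8 libraries. Residual degrees of freedom were 4 and the biological coefficient of variation 12.9%. Genes rose or fell where p, adjusted by Benjamini-Hochberg over 11934 genes, was under 0.05. DESeq2 1.42.0, limma 3.58.1 on log2(FPKM + 1) or log2(FPKM + 0.1), DESeq2's size factors in edgeR, no filter, only the compared groups, a replicate term and leaving out each library were alternatives. The fit was also run on counts simulated from its own estimates of the spread, which checks the code and not the results.

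The members and lists were chosen with earlier results of these data known. Named genes were Mcam, Ces2e, Ccdc153 and Des, neighbours within 200 kb, all listed carboxylesterases, up to 2 genes per list and direction with the smallest p with talazoparib, and the 3 nearest profiles of each gene (prior count 2). Other list genes, such as Flnc, Bcam and Vim, were named after their values were seen. Lists count older and newer symbols of a gene apart. Gene IDs were matched to RefSeq (GRCm38.p6) for 12237 of 12260 genes, and the 50-base words came from GENCODE transcripts.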

Additional observations from a re-analysis of the deposited data

How the results depend on the processing

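The rises of Mcam, Ces2e, Ccdc153 and Des in the combination against romidepsin passed in all 15 alternatives tried for each. Log2 fold changes ran from 2.41 to 2.80 for Mcam, 2.21 to 3.41 for Ces2e, 2.13 to 2.42 for Ccdc153 and 1.63 to 2.25 for Des, with highest adjusted p of 0.00422, 0.0192, 0.00632 and 0.0350. The genes were picked with results of all 4 groups known, so passing again on the same libraries is not independent of that choice. Talazoparib minus control on the log2(FPKM + 1) scale was 2.84, 2.29, 2.25 and 1.76 for the same genes. On leaving out 1 library, the combination minus talazoparib ran from -0.68 to 0.11 for Ces2e and from -0.15 to 0.44 for Des, and the sign turned without talazoparib 2. Talazoparib minus control ran from -0.17 to 0.20 for Cbl and turned negative without control 1 (-0.04) or talazoparib 2. The cause was not tested.

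Counts over all genes depended on single libraries. Leaving out 1 library gave 143 to 1516 calls with talazoparib, beside 1321, and 156 to 1990 in the combination against romidepsin, beside 1397. With talazoparib it was 143 and 193 when control 1 or control 2 was missing, 823 when talazoparib 2 was, and 821 and 818 when combination 1 or 2 was. In the combination it was 704 and 712 when control 1 or 2 was missing, 268 and 180 when romidepsin 1 or 2 was, and 282 and 156 when combination 1 or 2 was. Here a group left with 1 library is assumed to vary like the others and fewer degrees of freedom remain. With only the compared groups 296 genes were called with talazoparib. Neighbours called ranged from 1 to 5 with talazoparib, and were 1 with only the compared groups, and ranged from 1 to 5 in the combination. Genes called in the 6 lists ranged from 2 to 21 with talazoparib, were 3 with only the compared groups, and ranged from 1 to 18 in the combination. Leaving out libraries for neighbours and lists was chosen after seeing the data.

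The correlation of replicate differences between groups was -0.333 to 0.287. With 2 libraries per group this cannot show whether replicate numbers pair the samples, and the main fit used no pairing. With a replicate block 860 genes were called with talazoparib and 965 in the combination against romidepsin. In the 4 combination and romidepsin libraries alone, the block gave 722 calls and crossed numbers 2918 (chosen after seeing the data). Of 1170 checks of 39 other named genes, 888 kept their direction and side of the threshold, 256 lost a call, 24 gained one and 2 reversed. These checks include genes that were not called in the main fit. Of the 57 calls of these genes in the main fit, 10 held in every alternative. These were 6 of 28 with talazoparib and 4 of 29 in the combination. Depth limits the values of Ces2g and Ces2e in the romidepsin and control libraries, where 4 to 47 reads stand behind each.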

Other observations

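Markers of other blood cell types also differed between the groups. Of 11 macrophage and myeloid markers 4 were tested, and Lyz2 (log2 1.69 and 1.23), which encodes lysozyme, Itgam (1.61 and 1.6), an integrin gene, and Ly6c1 (1.25 and 1.66) rose both with talazoparib against control and in the combination against romidepsin (quasi-likelihood test of edgeR, Benjamini-Hochberg). Lyz2 had 11.7 and 11.5 CPM with talazoparib, 14.7 and 13.1 with the combination, 5.89 and 5.98 with romidepsin and 3.61 and 3.55 in control. The call of Ly6c1 with talazoparib was lost without control 1 (adjusted p = 0.0747). Csf1r, Adgre1 and Mpo, defining genes of the lineage, are not listed. The list summed to 91.0 to 101 CPM with talazoparib and 139 to 156 with the combination. It summed to 51.5 to 55.5 with romidepsin and 39.0 to 39.5 in control. Ly6c1 was the largest part, at 46.7 and 63.2 CPM with talazoparib and 86.9 and 107 with the combination. It had 34.3 and 27.1 with romidepsin and 21.7 and 24.4 in control. Of 8 B-cell markers only Cd79b and Ebf1 were tested, Ms4a1 and Pax5 not being listed. Both rose in both comparisons, with sums of 24.4 to 25.9, 26.9 to 30.1, 16.4 to 17 and 14.6 to 16.1 CPM. Each of these B-cell calls was lost on leaving out at least 1 library. For Cd79b these were control 1 (adjusted p = 0.0940) and control 2 (0.0614) with talazoparib, and romidepsin 1 (0.0659), romidepsin 2 (0.0599) and combination 2 (0.0846) in the combination. Of 8 fibroblast markers 3 were tested. Pdgfra, a growth factor receptor gene, rose in both comparisons (log2 0.91 and 1.06), and Thy1, which T cells also express, fell in the combination. The call of Pdgfra was lost without control 1 (adjusted p = 0.103) or control 2 (0.0743) with talazoparib, and without romidepsin 2 (0.0614) or combination 2 (0.0569) in the combination. The 3 genes summed to 1021 to 1087 CPM with talazoparib, 1025 to 1035 with the combination, 1244 to 1253 with romidepsin and 1209 to 1260 in control, most of it from Thy1. The part of these cells in the levels of Mcam, Ces2e, Ccdc153 and Des was not tested.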
